A study of Mus musculus with 2 samples.

Results

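The 9 genes described here encode hormones made by fat cells, called adipokines, and the receptors that bind them. The adipokines were leptin (*Lep*), adiponectin (*Adipoq*), resistin (*Retn*) and chemerin (*Rarres2*). The receptors were the leptin receptor (*Lepr*), the adiponectin receptors *Adipor1* and *Adipor2*, T-cadherin (*Cdh13*), which holds adiponectin at the cell surface, and the chemerin receptor *Cmklr1*. They were taken by symbol, as all probe sets annotated to one of these symbols alone, which gave 21 probe sets for 9 of the 18193 genes with a single symbol. A probe set is a group of short oligonucleotides that together read 1 transcript or a part of it.

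Their mRNA was compared between perigonadal white adipose tissue (WAT) of PeriA Tg and WT mice, all of them female, 30 weeks old, on a C57BL/6 background and fed a high-fat diet (HFD). PeriA Tg mice were heterozygous for human perilipin A, a protein of the lipid droplet surface, under the aP2 promoter/enhancer, and WT mice were their littermates without the transgene. The labels call this promoter adipocyte specific, and as background aP2 (*Fabp4*) is also known to be made by macrophages. Food was taken away overnight before the tissue was collected. RNA of 3 mice was pooled for each genotype and each pool went onto 1 Mouse Genome 430 2.0 array, so that no value has an error over mice and no test was possible.

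Adipokines carry news of the fat store to other organs. Leptin is secreted in proportion to fat mass and acts in the brain to lower food intake, whereas adiponectin circulates at high levels in lean animals and acts through its receptors on AMP-activated protein kinase (AMPK), PPARα and ceramide breakdown. Resistin is a product of mouse fat cells that opposes insulin action, and chemerin, which is cut by proteases into its active form, attracts macrophages and other immune cells through *Cmklr1* and also acts on fat cells themselves.

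Signals are the authors' MAS5 intensities on a linear scale, and the signal log ratio is the log2 of the Tg signal divided by the WT signal. A probe set passed the signal filter if at least 1 of its 2 signals reached 98.2, which is the median of all signals. Probe sets that read the same gene differed with a pooled SD of 0.41 in their signal log ratios (5260 genes with several passing probe sets), which covers repeated readings of the same pools and neither mice nor hybridisations. For the bacterial poly-A controls, labelled together with the sample RNA, the signal log ratio of the 5' probe set was below that of the 3' probe set in all 8 pairs (median -0.55), against a median of -0.005 in 8 pairs of hybridisation controls. Both kinds read the same control RNAs more than once (*dap*, *lys*, *phe* and *thr* for poly-A), so that the pairs are not independent. For transcripts of the mouse tissue itself, the 5' value minus the 3' value was -0.33 for *Gapdh*, -0.25 for *Actb*, -0.16 for pyruvate carboxylase and -1.67 for the transferrin receptor. For 18S ribosomal RNA it went the other way, at 0.31. The part of this difference in the values of single probe sets below was not tested. The tissue carried the markers of fat cells: 13 of 14 mature adipocyte genes were named on the array and passed the filter, with summed signals of 267730 in WT against 283967 in Tg. The probe sets of perilipin are not named in the annotation used here, so that the transgene itself was not checked.

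Of the 9 genes, 2 were over 0.3 (*Cmklr1* and *Adipor2*), 2 were under -0.3 (*Lep* and *Lepr*) and 5 lay between, each read from its brightest probe set. Over all 11587 genes that passed the filter, 16.6% were over 0.3 and 16.9% were under -0.3, so that the members' counts are near the background. Their median signal log ratio was 0.09, against 0.02 over all genes. All 9 passed the filter, and 18 of their 21 probe sets did, of which 4 were over 0.3 and 6 were under -0.3. Among those under -0.3, the *Lepr* probe sets and that of *Cdh13* passed the filter through their WT signal alone. Among those over 0.3, the dimmer *Cmklr1* probe set passed through its Tg signal alone. These calls thus depend on the array where the signal was high. Over all passing probe sets the shares were 17.8% over 0.3 and 21.5% under -0.3. *Lep*, *Adipoq*, *Adipor1* and *Adipor2* also stand among the genes that the study listed from these same arrays, as do *Prdm16*, *Ppargc1a* and *Ccl2*, named further on. For *Ccl2* the study listed a much smaller decrease than the one read here.

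**Figure D1:**
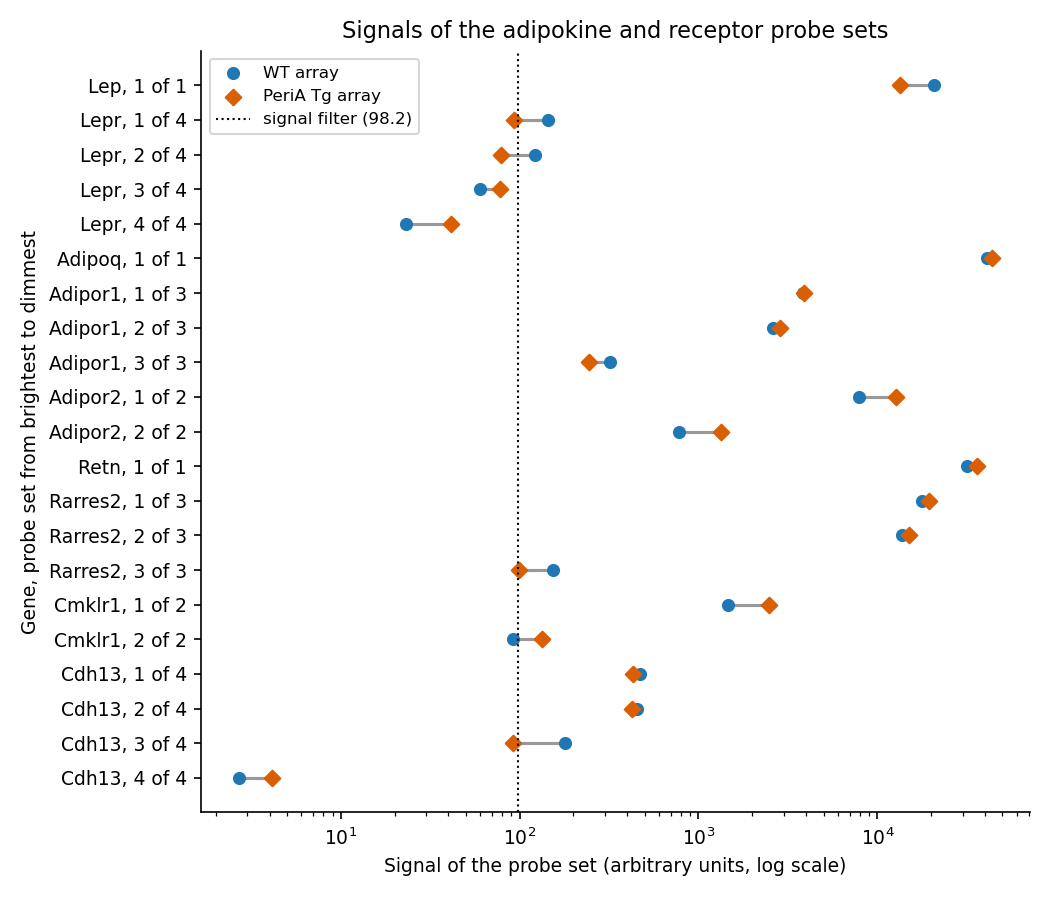
Signals of all 21 probe sets of the 9 genes on the WT array (circles) and the PeriA Tg array (diamonds), on a log axis in arbitrary units, ordered within each gene from the brightest to the dimmest; the dotted line is the signal filter of 98.2. *Lep* lies to the left on the Tg array, both probe sets of *Adipor2* and of *Cmklr1* lie to the right, and 3 probe sets lie under the filter on both arrays.

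Leptin mRNA was lower on the Tg array. The only *Lep* probe set gave 20770 in WT against 13305 in Tg, which is 1.56-fold lower and a signal log ratio of -0.64. Of 207 other genes whose mean log2 signal lay within 0.5 of that of *Lep*, 5.80% were under -0.3, and 3 were as low as *Lep*. This is a description of these arrays and not a test. Signals of genes that other work ties to the expansion of fat cells were lower as well: of 5 such genes, 4 were named and passed, and 3 of these were under -0.3, with summed signals of 59210 in WT against 41064 in Tg. *Mest*, which is known to follow fat cell enlargement, had 24849 in WT against 14124 in Tg, *Sfrp5* had -0.63 and *Trp53inp2* -0.62, while *Npr3* had -0.13. On second-brightest probe sets *Trp53inp2* had -0.09 and *Npr3* -0.61, so that which of them was past the threshold depended on the probe set, and *Sfrp5* had -1.37. Of the 13 mature adipocyte markers that passed, 4 were over 0.3 (*Pparg*, *Lipe*, *Pck1* and *Agpat2*) and 1 was under -0.3 (*Gpd1*), with a median of 0.09. On second-brightest probe sets 8 of these markers passed, with 1 over, 3 under and a median of -0.04, and *Pck1* had -0.80 and *Lipe* 0.22. Over all genes 17.0% were over and 25.8% under at that setting. In whole tissue, fewer cells of a type and less RNA per cell cannot be told apart, and the part of these markers in the *Lep* value was not tested.

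The leptin receptor gave mixed readings near the lower end of the array. Its brightest probe set had 143.5 in WT against 92.9 in Tg, a signal log ratio of -0.63. The second had 122.5 and 79.1, also -0.63, so that both were above the filter in WT and below it in Tg. The other 2 probe sets were under the filter on both arrays and higher in Tg, with 59.9 in WT against 77.4 in Tg for one and 23.3 and 41.2 for the other, both with a suffix for several transcripts of the gene in their names. *Lepr* is spliced into a long signalling form and short forms, and which of these each probe set reads is not given in the sources used here. At this brightness such values are common: of 1406 other genes with a mean log2 signal within 0.5 of that of *Lepr*, 35.1% were under -0.3 and 235 were as low as *Lepr*.

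Among genes that carry the leptin signal inside the cell, 17 of 21 were named and passed the filter. Of these, 2 were over 0.3, 2 were under -0.3 and 13 lay between, with a median of 0.13. On second-brightest probe sets 13 genes passed, with 1 over, 5 under and a median of -0.15. Over all genes 17.0% were over and 25.8% under at that setting. Over 0.3 were *Irs1*, an adaptor of insulin and cytokine receptors, with 1829 in WT against 2920 in Tg, and *Socs3*, a feedback inhibitor that leptin induces through STAT3, with 396.6 and 569.2. Under -0.3 were the adaptor *Grb2* (-0.55, and -0.21 on its second-brightest probe set) and *Ptpn1* (-0.33, and -0.25 with median centring), the phosphatase PTP1B that switches off the kinase bound to the leptin receptor. *Socs3* and *Ptpn1*, both brakes on leptin signalling, thus had values of opposite sign.

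Adiponectin mRNA was nearly the same on both arrays, whereas its receptors differed from each other. *Adipoq* had a signal of 41052 in WT against 43803 in Tg, a signal log ratio of 0.09. The highest signal of any probe set was 53205 in WT against 56988 in Tg, so that *Adipoq* was read close to the top of the scale. None of the 32 other genes with a mean log2 signal within 0.5 of that of *Adipoq* was past 0.3 or -0.3.

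*Adipor2*, the receptor linked mainly to PPARα and fatty acid oxidation, was higher on the Tg array in both of its probe sets. The brightest had 7941 in WT against 12634 in Tg, a ratio of 1.59 and a signal log ratio of 0.67. The other, dimmer one had 780.2 in WT against 1332 in Tg, a signal log ratio of 0.77. Of 385 other genes whose mean log2 signal lay within 0.5 of that of *Adipor2*, 10.6% were over 0.3 and 5 were as high as *Adipor2*. The name of the brightest probe set carries a suffix for sequence shared by several transcripts, and that of the second carries none.

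*Adipor1*, the receptor linked mainly to AMPK, lay within the threshold on its brighter probe sets. Its brightest probe set had 3839 in WT against 3905 in Tg (0.02) and the next 2594 and 2841 (0.13). The dimmest had 319.0 in WT against 243.4 in Tg, which is -0.39 and under the threshold. The last 2 were designed from the same sequence record and differed in sign, and the names of the brightest 2 carry suffixes for probes that can match other sequences or several transcripts of the gene. The *Adipor2* value was above that of *Adipor1*, on 1 array per genotype and with no test. The pooled SD of 0.41 is a spread of probe sets within a gene and gives no error for a contrast between genes.

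*Cdh13*, which has no signalling domain inside the cell and binds the larger forms of adiponectin on vessels and muscle, had 467.9 in WT against 429.8 in Tg by its brightest probe set (-0.12) and 450.2 and 423.8 on the next (-0.09). A dimmer probe set had 179.0 in WT against 91.6 in Tg, the latter under the filter (-0.97). The dimmest, from the same sequence record as that one, had signals of 2.70 and 4.10 and lies far under the filter. Endothelial cells are a known site of *Cdh13*, and of 12 endothelial markers, all of which passed, 1 was over 0.3 (*Flt1*, 0.32) and 1 was under -0.3 (*Tie1*, -0.72), with a median of -0.06 and summed signals of 14301 in WT against 13395 in Tg.

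**Figure D2:**
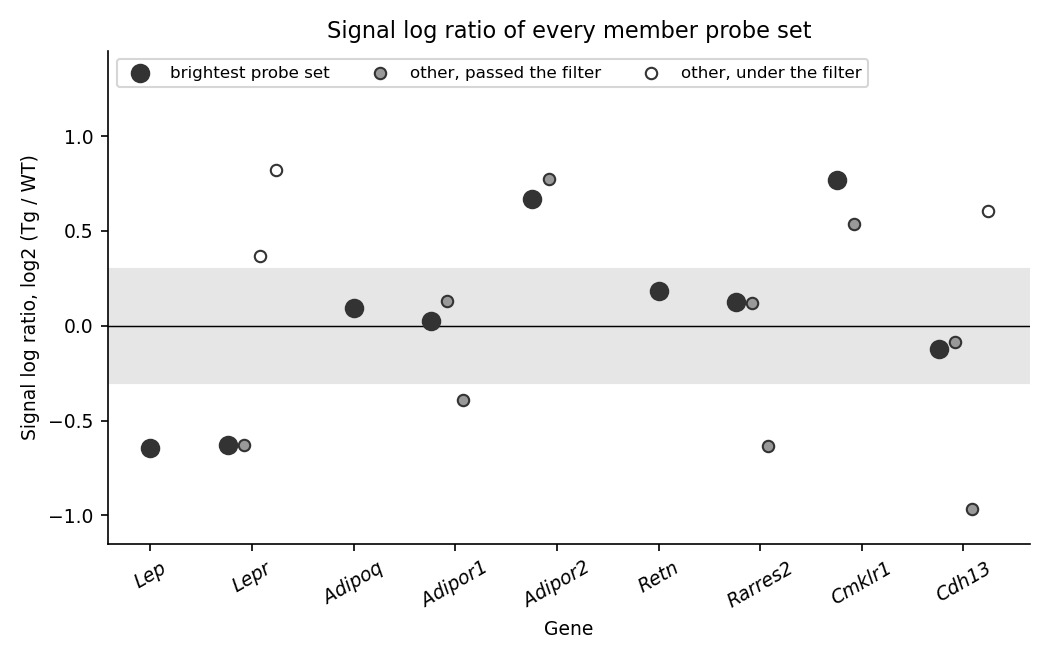
Signal log ratio of Tg to WT (log2) for every probe set of the 9 genes. Large filled points are the brightest probe set of each gene, small grey points are other probe sets that passed the signal filter, open points lie under the filter, and the grey band covers -0.3 to 0.3. *Adipor2* and *Cmklr1* lie above the band in all their probe sets, whereas *Lepr*, *Adipor1*, *Rarres2* and *Cdh13* have probe sets on both sides of 0.

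Of 18 genes that act after the adiponectin receptors, 16 were named and passed. On brightest probe sets 8 of these were over 0.3 and no gene was under -0.3, at a median of 0.20 against 0.02 over all genes. The counts depended on the probe set. With the median over probe sets 5 of 16 were over and 2 under, and without suffixes 6 of 15 were over and 1 under. On second-brightest probe sets 4 of 10 were over and 3 under. Over all genes, 15.7%, 17.2% and 17.0% were over at these settings in turn, and 21.3%, 18.1% and 25.8% were under. *Ppara*, a nuclear receptor for fatty acids that turns on their oxidation, had 151.2 in WT against 591.0 in Tg, a signal log ratio of 1.97. *Insr*, the insulin receptor, had 764.6 in WT against 1285 in Tg (0.75), and *Ppargc1a*, the coactivator of mitochondrial biogenesis, had 100.1 and 138.7 (0.47). *Camkk2*, a kinase that activates AMPK, had 0.49 on its brightest probe set and -0.70 on the next. Of the AMPK subunits, *Prkaa1*, *Prkab2* and *Prkag2* had 0.44, 0.46 and 0.33, while *Prkaa2*, *Prkab1* and *Prkag1* had -0.11, 0.06 and -0.03. *Prkab2* had 0.01 and *Prkag2* 0.11 on the second-brightest probe set, both inside the threshold. *Ppara* and *Ppargc1a* are also genes of brown fat, and 10 of 10 brown adipocyte markers were over 0.3, with summed signals of 5410 in WT against 28878 in Tg. Among these markers, *Slc27a2*, *Dio2* and *Elovl3* were above the filter in Tg alone. The part of brown adipocyte genes in the list's median was not tested.

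On brightest probe sets, the machinery that folds and releases adiponectin differed little between the arrays. All 12 of its genes passed, of which 1 was over 0.3, 2 were under -0.3 and 9 lay between, with a median of -0.03. With the median over probe sets 0 were over and 3 under. On second-brightest probe sets 8 genes passed, with 0 over, 4 under and a median of -0.23. Over all genes 21.3% and 25.8% were under at these settings in turn. *Pdia3*, a disulphide isomerase of the endoplasmic reticulum, had 0.43 (-0.38 on its second-brightest probe set), and *Gstk1*, which is known to promote the joining of adiponectin into multimers, had 4066 in WT against 4912 in Tg (0.27). *Pdia4*, another disulphide isomerase, had 210.4 in WT against 110.1 in Tg (-0.93, and -2.30 on its second-brightest probe set). *Colgalt1*, which adds sugars to collagen-like proteins, had -0.44 (-0.09 on its second-brightest probe set).

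Resistin mRNA was slightly higher on the Tg array and under the threshold. The only *Retn* probe set had 31536 in WT against 35867 in Tg, a ratio of 1.14 and a signal log ratio of 0.19. This is another signal near the top of the scale: none of 54 other genes with a mean log2 signal within 0.5 of that of *Retn* was past 0.3 or -0.3, and 4 of them were as high as *Retn*. *Lep*, *Adipoq* and *Retn* each rest on 1 probe set, so that no second reading of these hormones was to be had.

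Chemerin mRNA lay within the threshold on its bright probe sets, and that of its receptor *Cmklr1* lay above it on both. *Rarres2* had 17755 in WT against 19344 in Tg by its brightest probe set and 13780 and 14957 on the next, both with a signal log ratio of 0.12. Both have names with a suffix for shared sequence. The one without a suffix was dim, with 154.4 in WT against 99.4 in Tg (-0.64), the latter just above the filter. *Cmklr1*, in contrast, had 1456 in WT against 2478 in Tg on its brightest probe set, a ratio of 1.70 and a signal log ratio of 0.77, the highest of the 9 genes. The other, with 91.4 in WT against 132.6 in Tg, had 0.54 and was above the filter in Tg alone. It was about as dim as *Lepr*, and among genes of the brightness of *Lepr* 25.3% were over 0.3. Neither *Cmklr1* probe set carries a suffix. Of 1626 other genes whose mean log2 signal lay within 0.5 of that of *Cmklr1*, 13.7% were over 0.3 and 12 were as high.

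*Cmklr1* is made by macrophages as well as by fat cells. Of the macrophage markers, all 14 passed. None was over 0.3, 7 were under -0.3 and 7 lay between, with a median of -0.32 and summed signals of 49320 in WT against 40852 in Tg. *Trem2*, a receptor of lipid-laden macrophages, had 1062 in WT against 294.5 in Tg, *Itgax* had -1.35 and *Itgam* -1.22. Between the thresholds, *Adgre1*, which encodes the F4/80 antigen, had -0.28, *Lyz2* -0.24, *Csf1r* -0.16 and *Mertk* -0.12. *Mrc1* had -0.004, *Cd163* 0.10 and *Cd14* 0.18. *Cx3cr1* had -2.33 with a dim Tg signal of 33.1, -1.55 when signals under 56.9 were raised to that floor, and -0.57 on its second-brightest probe set. The mature adipocyte markers had a median of 0.09 on brightest probe sets and -0.04 on second-brightest ones, as given above. In which cells *Cmklr1* was read was not tested.

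Of 14 symbols listed for other chemerin receptors and for proteases, 8 were named and passed, of which 1 was over 0.3, 2 were under -0.3 and 5 lay between. The other chemerin receptors were *Gpr1*, with 278.9 in WT against 325.6 in Tg (0.22), and *Ccrl2*, which binds chemerin without signalling, with 273.9 and 268.7 (-0.03). *Ctsk* and *Ctss*, cysteine proteases that can cut chemerin, had -0.99 and -0.78, and both are also made by macrophages. Of the other listed proteases, *Ctsl* had 26497 in WT against 22727 in Tg (-0.22), *Cma1* 0.08 and *Elane* -0.06, all inside the threshold. *Klk1* had 0.31 on its brightest probe set and -0.79 on the next.

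**Figure D3:**
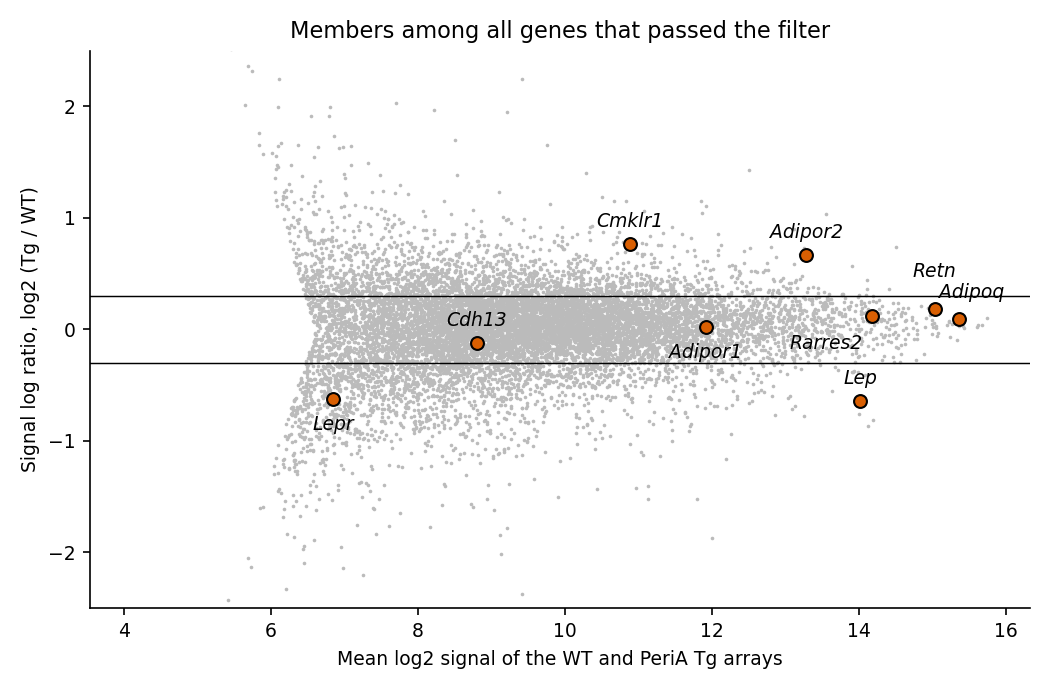
Signal log ratio of Tg to WT (log2) by the mean of the log2 signals in WT and Tg for the 11587 genes that passed the signal filter (grey, one point per gene), with the 9 members as large points and lines at 0.3 and -0.3; 32 genes lie outside the vertical axis. *Lep* and *Adipor2* lie beyond the lines at a brightness where few genes do, *Lepr* lies where the scatter is wide, and *Adipoq*, *Retn* and *Rarres2* lie between the lines.

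Transcription factors that control adipokine genes were also read. All 18 passed, of which 5 were over 0.3, none was under -0.3 and 13 lay between, with a median of 0.14. On second-brightest probe sets 12 passed, of which 1 was over and 3 were under, with a median of -0.15. Over all genes 17.0% were over and 25.8% under at that setting. The median over probe sets gave 4 over and 2 under, where 15.7% and 21.3% of all genes were. *Pparg*, the master regulator of fat cells and an activator of *Adipoq*, had 4204 in WT against 6234 in Tg (0.57). *Klf15* had 0.53, *Prdm16* 0.43, *Nfyc* 0.42 and *Cebpd* 0.32, but *Prdm16* had 0.18 and *Cebpd* -0.20 on the second-brightest probe set. *Cebpa*, known to activate the *Lep* and *Retn* promoters, had 8515 in WT against 9928 in Tg (0.22), and *Cebpb* had 0.13.

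**Figure D4:**
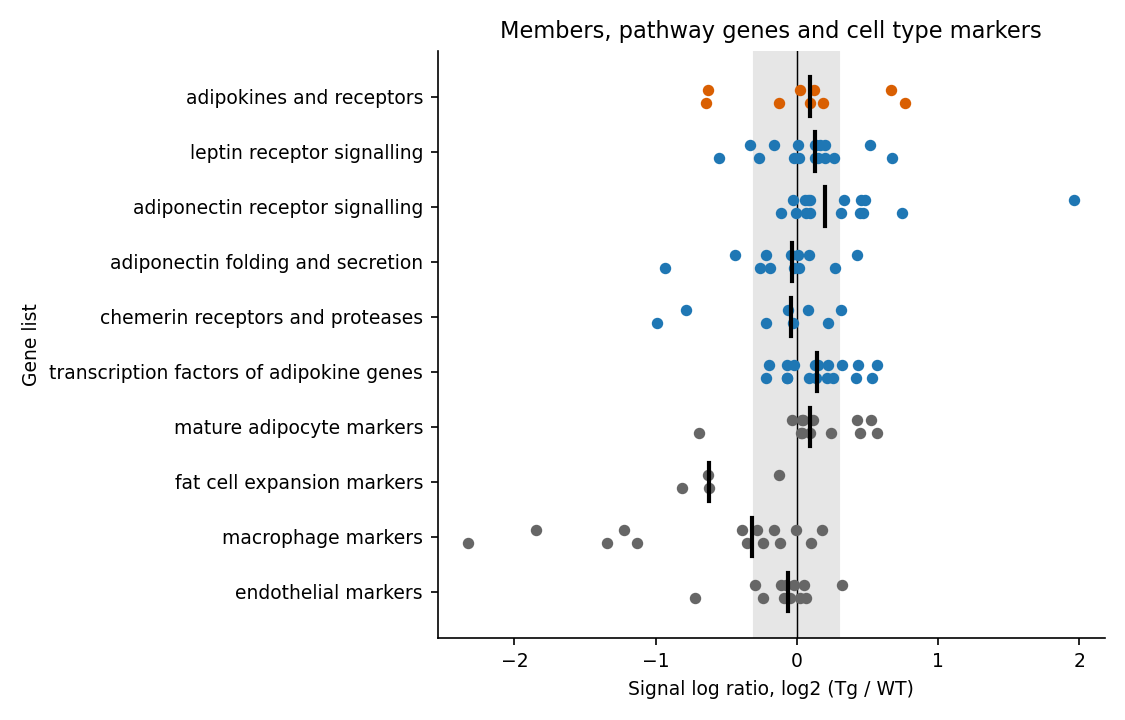
Signal log ratio of Tg to WT (log2) for the 9 members, the genes of 5 pathway lists and those of 4 lists of cell type markers, one point per gene that passed the signal filter, each read from its brightest probe set. Black bars are medians and the grey band covers -0.3 to 0.3, while the vertical place within a list has no meaning. The members lie on both sides of the band with a median of 0.09, the adiponectin receptor signalling genes have none under the band on these probe sets (2 with the median over probe sets), and the fat cell expansion and macrophage markers have none above it.

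The sequence before the transcription start is shown for *Lep*, *Adipor2* and *Cmklr1*, whose probe sets were all past the threshold in 1 direction. The dimmer *Cmklr1* probe set was above the filter in Tg alone. Each is the 250 bases before the start listed by RefSeq on GRCm38.p6, 5' to 3' on the strand of the gene, and capitals mark matches to the motifs GGGCGG (bound by Sp1), TTNNGCAA (C/EBP), CACGTG (E-box), AGGTCA (nuclear receptors) and TATAAA, searched on both strands. *Lep* is at chr6:29059971-29060220 on the plus strand, *Adipor2* at chr6:119388735-119388984 on the minus strand and *Cmklr1* at chr5:113643604-113643853 on the minus strand.
Lep: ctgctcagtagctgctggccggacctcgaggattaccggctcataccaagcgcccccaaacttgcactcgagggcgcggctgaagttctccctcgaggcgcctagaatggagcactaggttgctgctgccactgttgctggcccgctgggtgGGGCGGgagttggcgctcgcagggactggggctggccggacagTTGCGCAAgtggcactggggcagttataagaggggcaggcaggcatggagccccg
Adipor2: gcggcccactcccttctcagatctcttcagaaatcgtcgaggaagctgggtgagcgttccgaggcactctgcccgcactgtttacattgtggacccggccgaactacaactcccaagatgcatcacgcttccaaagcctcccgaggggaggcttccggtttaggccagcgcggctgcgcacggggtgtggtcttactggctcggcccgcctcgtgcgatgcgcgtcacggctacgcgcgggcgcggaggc
Cmklr1: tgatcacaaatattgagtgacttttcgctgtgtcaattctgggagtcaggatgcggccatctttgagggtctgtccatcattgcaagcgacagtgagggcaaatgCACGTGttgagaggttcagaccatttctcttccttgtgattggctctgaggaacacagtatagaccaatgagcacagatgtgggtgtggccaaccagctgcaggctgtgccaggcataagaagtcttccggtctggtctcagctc

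The *Lep* sequence holds 1 GGGCGG, which 32.7% of the 32851 promoters in the table hold in the same window, and 1 TTNNGCAA, read as TTGCGCAA on either strand from 55 to 48 bases before the start, which 9.56% hold. *Cmklr1* holds 1 CACGTG, from 145 to 140 bases before the start, which 6.02% hold. None of the 5 motifs is in the *Adipor2* window, and AGGTCA and TATAAA, which 14.0% and 12.4% of promoters hold, are in none of the 9 windows listed for 7 of the members. *Rarres2* and *Cdh13* are not in the table. *Adipor1*, with 2 listed starts, holds 2 GGGCGG in each window, and *Lepr*, also with 2, holds 1 in one of them. A match is a string of letters and was not tested for binding.

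How the arrays were scaled and which probe set was read did not affect the 9 genes alike. Under median centring, quantile normalization and loess, and with a pseudocount or a floor for low signals, every member kept its side of 0.3 and -0.3. *Lep* ranged from -0.69 to -0.56, *Adipor2* from 0.62 to 0.75 and *Cmklr1* from 0.75 to 0.85 over these 5 settings. The choice of probe set mattered more. The median over its 4 probe sets put *Lepr* at -0.13, inside the threshold, and the brightest probe set without a suffix put *Adipor1* at -0.39 and *Rarres2* at -0.64, below it.

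**Figure D5:**
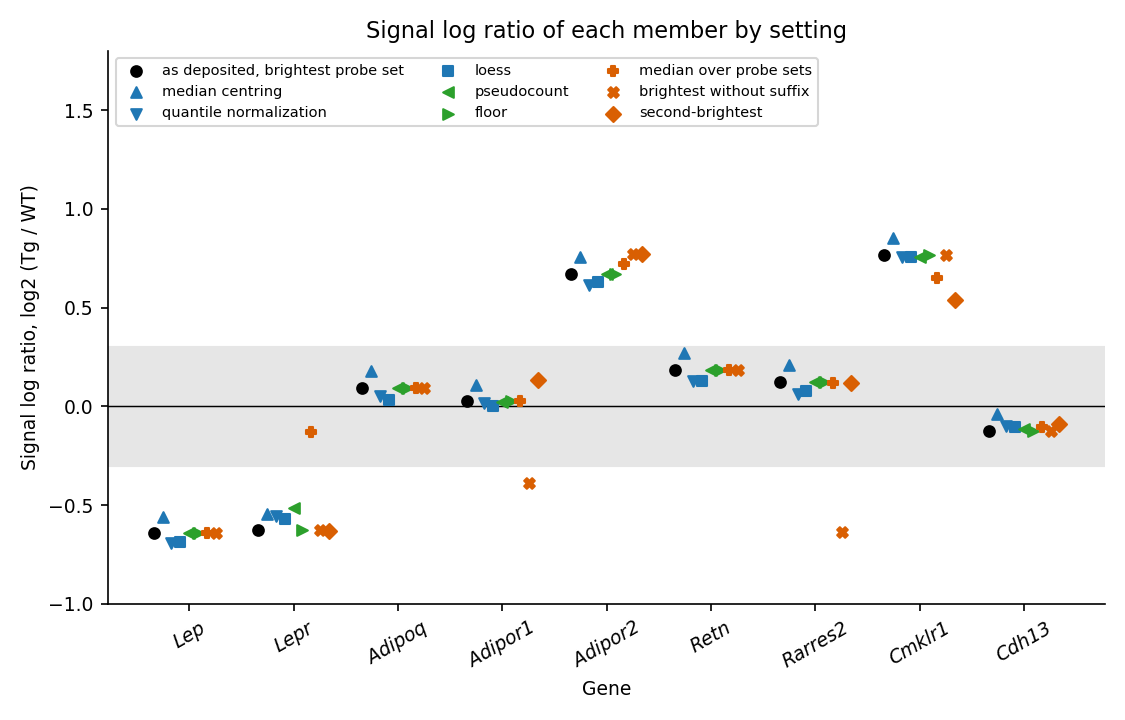
Signal log ratio of each member under 9 settings: signals as deposited with the brightest probe set (black), 3 scalings of the arrays (blue), 2 treatments of low signals (green) and 3 choices of probe set (orange). The grey band covers -0.3 to 0.3; *Adipor2* and *Cmklr1* stay above it and *Lep* below it, while orange points of *Lepr*, *Adipor1* and *Rarres2* cross it.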

How the data were processed

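Perigonadal WAT of WT and PeriA Tg mice was measured on 1 array per group, each with pooled RNA of 3 mice. GeneChip Operating Software ver1.4 (MAS5 in the submitters' notes) gave the deposited intensity values, which the authors scaled to a trimmed mean of 500.0 on each array. Their filter on Present calls is not part of this table, and detection calls were not used here.

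Signal log ratios were computed without further normalization. Names came from the platform annotation: 34945 of 45037 non-control probe sets had 1 symbol, 932 several, and 9160 were not listed. Genes were read from the probe set of highest mean log2 signal, and the threshold of 0.3 or -0.3 follows the study's methods. The members, lists and alternatives were chosen with earlier results of these data known. The text names every member, up to 4 genes of a list with the largest values, and others chosen after their values were seen. These others are the AMPK subunits, *Gpr1*, *Ccrl2*, *Ctsl*, *Cma1*, *Elane*, the macrophage markers inside the threshold, *Cebpa*, *Cebpb* and remaining genes past the threshold. The value computation was run on simulated data without noise, which checks its arithmetic alone and says nothing on the precision of the values. With 1 array per group, the number of arrays limits how precise any value can be. The planned comparison of receptor proteins was not done. Python 3.11.15, numpy 2.4.6, pandas 2.3.3, statsmodels 0.14.6 and matplotlib 3.10.9 were used.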

Additional observations from a re-analysis of the deposited data

How the results depend on the processing

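With 1 array per genotype, no replicate was to be left out, and no paired analysis was possible because each group is 1 sample. In place of a replicate error, a value is said here to move when it changes by more than 0.41, the pooled SD over probe sets that read the same gene, and a count when it changes by over 1.5 times. Of the recomputed values and counts of the members, 92 did not move. The 9 others follow. The median over probe sets gave *Lepr* -0.13 and left 1 member under -0.3 in place of 2. The brightest probe set without a suffix gave *Adipor1* -0.39 and *Rarres2* -0.64, with 4 members under -0.3. The second-brightest probe set, which 6 members have, left 1 under -0.3, as did the stricter filter at 470.5, which removes *Lepr* and *Cdh13*. With a threshold of 1 and -1, 0 members were over and 0 were under. The median of the members was 0.09 as deposited and -0.12 on probe sets without a suffix.

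Of 581 recomputed values of other named genes and list medians that were past the threshold as reported, 24 changed sign. Among 265 recomputed values of those nearer to 0, 25 changed sign. A gene or list counts once for each alternative. Some genes named inside the threshold, such as *Mrc1* and *Cd163*, were not recomputed. In what follows, values past the threshold as reported are meant. On second-brightest probe sets the 24 included *C1qtnf7* (0.54), *Camkk2* (-0.70), *Cdh2* (0.31), *Cebpd* (-0.20), *Fabp3* (-0.013), *Gas6* (-2.23), *Klk1* (-0.79), *Myh11* (3.13), *Paqr7* (1.23), *Pck1* (-0.80), *Pdgfra* (-0.66), *Pdia3* (-0.38) and *Ror1* (-1.13), and the medians of the C1q/TNF paralogues (0.25, 3 genes) and the macrophage markers (0.073, 2 genes). With the median over probe sets they were *C1qtnf7* (0.093), *Camkk2* (-0.27), *Gas6* (-0.88), *Klk1* (-0.24), *Myh11* (1.38), *Paqr7* (0.28) and *Pck1* (-0.15), and without suffixes *Camkk2* (-0.70) and *Klk1* (-0.79). The cause was not tested. With median centring *Cebpa*, *Gpr1* and *Gstk1* passed 0.3, at 0.31, 0.31 and 0.36. Over all genes, median centring shifted the median from 0.02 to 0.11 and the share of higher genes among those past the threshold from 49.6% to 65.6% (2885 over and 1510 under, against 1929 and 1963). The counts were 4468 and 4548 with no filter, 1015 and 827 with the stricter filter, 892 and 1358 on second-brightest probe sets, and 118 and 217 past 1 and -1.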

Other observations

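Other secreted factors of fat went both ways. Of 24 listed, 17 were named and passed the filter, of which 4 were over 0.3, 6 were under -0.3 and 7 lay between, with a median of 0.01. Over 0.3 were *Nrg4*, a signal from brown fat to the liver, with 1230 in WT and 2737 in Tg (1.15), and *Agt* (0.45), which encodes angiotensinogen. *Fgf21* had 94.0 in WT, under the filter, and 130.3 in Tg (0.47). *Gas6* had 0.46 on its brightest probe set but -0.88 by the median over probe sets and -2.23 on the second-brightest. Under -0.3 were *Ccl2*, the chemokine MCP-1 that draws monocytes into fat, with 1109 in WT and 322.4 in Tg (-1.78), *Lcn2*, *Hp* and 3 others. *Lcn2* had 134.4 in WT and 58.8 in Tg, the latter under the filter (-1.19). *Hp*, haptoglobin, had 24303 in WT and 13303 in Tg (-0.87). Of the 14 macrophage markers, 7 were under -0.3 and 7 lay between, with a median of -0.32, and their part in the *Ccl2* value was not tested.

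Relatives of the members were read as well. Of 11 C1q/TNF paralogues of adiponectin, 7 were named and passed, none was over 0.3 and 4 were under -0.3, with a median of -0.30. *C1qtnf6* had 155.0 in WT and 26.1 in Tg, or -1.45 when signals under 56.9 were raised to that floor, and *C1qtnf7*, *C1qtnf9* and *C1qtnf1* had -0.35, -0.34 and -0.30. These lay at the threshold, and median centring left 1 of the 4 under it. Of 9 other genes of the receptor family to which *Adipor1* and *Adipor2* belong, 5 passed. *Paqr3* had 80.1 in WT, under the filter, and 138.8 in Tg (0.79). *Paqr7* had -0.66 (1.23 on its second-brightest probe set) and *Paqr9* -0.45, and *Mmd* had 32713 in WT and 28116 in Tg (-0.22). Among resistin relatives and binding proteins, 5 of 7 passed. *Retnla*, a resistin paralogue of alternatively activated macrophages, had 15337 in WT and 11903 in Tg (-0.37, and -0.28 with median centring). *Cap1*, which binds resistin, had 166.0 in WT and 80.8 in Tg, the latter under the filter (-1.04). *Ror1* had 0.71 (-1.13 on its second-brightest probe set) and *Dcn* 0.14. Of 12 other cadherins, 4 passed: *Cdh15* had 1.65 at signals of 38.9 and 121.8, or 1.10 with the floor. *Cdh2* had -0.71, *Cdh11* 0.22 and *Cdh5* -0.11, against 0.31, 0.62 and 0.52 on second-brightest probe sets. The median signal log ratio was -0.08 for 10 fibroblast and preadipocyte markers, -0.24 for 9 of smooth muscle and pericytes, 0.22 for 7 mesothelial markers and -0.39 for the 5 of 8 T and NK cell markers that passed.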
